A study of Mus musculus with 12 samples.

Results

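Serine and one-carbon synthesis in mouse liver was followed through 8 genes: Phgdh, Psat1, Psph, Shmt1, Shmt2, Mthfd1, Mthfd2 and Mthfd1l. Each gene was represented by the array probe set annotated to it alone, and where it had several, by the one with the highest mean over all arrays. On this rule 7 of the 8 were measured, among 17097 genes in all. Both probe sets of Mthfd2, the mitochondrial partner of Mthfd1, are also annotated to Gsn, so no value is given for it. The probe sets number 4 for Shmt1, 3 for Shmt2, 2 each for Phgdh and Mthfd1, and 1 each for Psat1, Psph and Mthfd1l.

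RNA came from livers of adult C57BL/6 mice, either wildtype or null for Socs2 on the same background. Socs2 encodes a suppressor of cytokine signalling that restrains growth hormone signalling in liver. The 6 groups are wildtype 0 h, Socs2-null 0 h, wildtype 24 h, Socs2-null 24 h, wildtype 36 h and Socs2-null 36 h. Mice at 0 h were unoperated and age-matched, and the others were sampled 24 or 36 h after removal of 2/3 of the liver, the operation that sets the remaining lobes regrowing. Each group has 2 arrays and every array carries a pool of liver RNA from 3 mice. Replicates are therefore pools (n = 2 throughout), and the spread between single mice cannot be seen. No group had a sham operation. The effect of liver loss therefore cannot be told apart from that of surgery or hour of harvest, and the sex of the mice is not given in the sources used here.

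Levels are given as the processed array intensities that the authors deposited, which are linear. Changes are log2 differences of intensity + 16, given ± the standard error of the limma fit. Adjusted p-values are Benjamini-Hochberg over all 17097 genes, and a gene was called at an adjusted p under 0.05. Background was set by 17 tag control probe sets, which match no mouse transcript, and the brightest of them lay at 33 to 45 on the 12 arrays. Socs2 itself ran from 116 to 546 on the wildtype arrays and from 23.2 to 29.5, under background, on every Socs2-null array, as the labels say. Median intensity of an array ranged from 43.5 to 52.3, and the precision of every value is limited by the number of arrays.

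Serine is made from the glycolytic intermediate 3-phosphoglycerate in a short chain of reactions. Phgdh oxidizes it, Psat1 transfers an amino group to the product, and Psph removes the phosphate. Shmt1 in the cytosol and Shmt2 in mitochondria then split serine into glycine and a carbon unit carried on tetrahydrofolate. Mthfd1 in the cytosol, and Mthfd2 and Mthfd1l in mitochondria, interconvert the folate-bound carbon as methylene, methenyl and formyl groups and join or release formate. These units go into purines, thymidylate and methyl groups, which a growing tissue needs. In resting liver the serine synthesis genes are known to be kept low by dietary protein, and ATF4, the transcription factor of the amino acid response, is known to drive Phgdh, Psat1, Psph, Shmt2 and Mthfd2.

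The promoters of 4 members are shown because these were called at 24 h in both genotypes, Psat1 and Psph higher and Shmt1 and Mthfd1 lower. They are RefSeq windows on GRCm38.p6, from 250 bases before to 50 after a start site, and all 8 genes were found in that table, Psat1 with 2 start sites. The first listed Psat1 window is chr19:15925010-15925309 on the minus strand (60.3% GC), Psph is chr5:129787204-129787503 minus (65% GC), Shmt1 is chr11:60811216-60811515 minus (60.7% GC) and Mthfd1 is chr12:76254982-76255281 plus (59% GC). The start sites used for Psph and Mthfd1 lie inside the annotated span of their genes. Capitals mark GC boxes (GGGCGG) and CCAAT boxes (CCAAT) on either strand, overlapping matches included.
Psat1: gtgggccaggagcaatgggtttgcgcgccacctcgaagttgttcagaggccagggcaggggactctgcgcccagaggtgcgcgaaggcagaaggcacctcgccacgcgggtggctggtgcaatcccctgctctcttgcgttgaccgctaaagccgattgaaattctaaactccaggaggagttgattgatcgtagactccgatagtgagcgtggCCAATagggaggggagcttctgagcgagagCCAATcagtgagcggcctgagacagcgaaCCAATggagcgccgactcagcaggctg
Psph: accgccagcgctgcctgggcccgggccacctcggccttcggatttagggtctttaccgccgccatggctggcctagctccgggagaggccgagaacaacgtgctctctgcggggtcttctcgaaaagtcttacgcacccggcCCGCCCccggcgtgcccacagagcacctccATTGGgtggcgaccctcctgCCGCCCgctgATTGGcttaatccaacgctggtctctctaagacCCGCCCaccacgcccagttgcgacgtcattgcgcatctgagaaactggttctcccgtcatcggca
Shmt1: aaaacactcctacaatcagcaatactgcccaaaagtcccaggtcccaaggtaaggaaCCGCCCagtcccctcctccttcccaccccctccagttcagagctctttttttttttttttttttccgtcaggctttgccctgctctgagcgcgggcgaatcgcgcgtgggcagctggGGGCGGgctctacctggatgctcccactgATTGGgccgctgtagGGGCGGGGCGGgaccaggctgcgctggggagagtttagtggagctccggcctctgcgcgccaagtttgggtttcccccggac
Mthfd1: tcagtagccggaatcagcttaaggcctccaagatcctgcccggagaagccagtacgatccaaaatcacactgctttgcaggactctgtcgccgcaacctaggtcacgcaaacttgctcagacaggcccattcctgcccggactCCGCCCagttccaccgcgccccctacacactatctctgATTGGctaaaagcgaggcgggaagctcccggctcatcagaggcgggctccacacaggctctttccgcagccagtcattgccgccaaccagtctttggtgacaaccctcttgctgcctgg
CCAAT boxes stand 3 times in this Psat1 window, the nearest beginning 6 bases before the start site, and no GC box does. Psph holds 3 GC boxes and 2 CCAAT boxes, Shmt1 4 GC boxes, of which a pair overlap, and 1 CCAAT box, and Mthfd1 1 of each. Over the 9 windows of the 8 genes, 5 hold a GC box and 6 a CCAAT box, against 35.7% and 37.4% of the 32851 windows in the table. TGATGCA, part of the element that C/EBP and ATF proteins bind together, was found in 0 of the 9 windows and in 3.15% of all. The E-box CACGTG was found in 0 of the 9 and in 7.15% of all. Matches are letters in a window and no evidence of binding, the absence of a match says nothing of sites elsewhere, and the searches for GC and CCAAT boxes were added after the expression values were seen.

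Psat1, the aminotransferase of serine synthesis, went from below background to a clear signal in every operated group. Its intensities were 17.1 and 16.7 in wildtype 0 h and 23.3 and 16.3 in Socs2-null 0 h, all of them below background. They were 390 and 211 in wildtype 24 h, 280 and 540 in Socs2-null 24 h, 240 and 558 in wildtype 36 h and 449 and 366 in Socs2-null 36 h. All 8 operated arrays lay above all 4 unoperated ones, with no overlap. In wildtype liver its log2 change over 24 h was 3.20 ± 0.41 with an adjusted p of 0.00134, and the change over 36 h was 3.54 ± 0.41 with an adjusted p of 0.00102. In Socs2-null liver the changes were 3.51 ± 0.41 (adjusted p = 0.000692) and 3.56 ± 0.41 (adjusted p = 0.000639). Because the 0 h groups are under background, the folds are bounds taken on the intensities without the added 16. Psat1 rose at least 6.78-fold and at least 8.66-fold in wildtype liver at 24 and 36 h, and at least 9.75-fold and at least 10.2-fold in Socs2-null liver. In whole-tissue RNA a change in the number of cells that carry a transcript and a change in its amount per cell cannot be told apart.

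**Figure D1:**
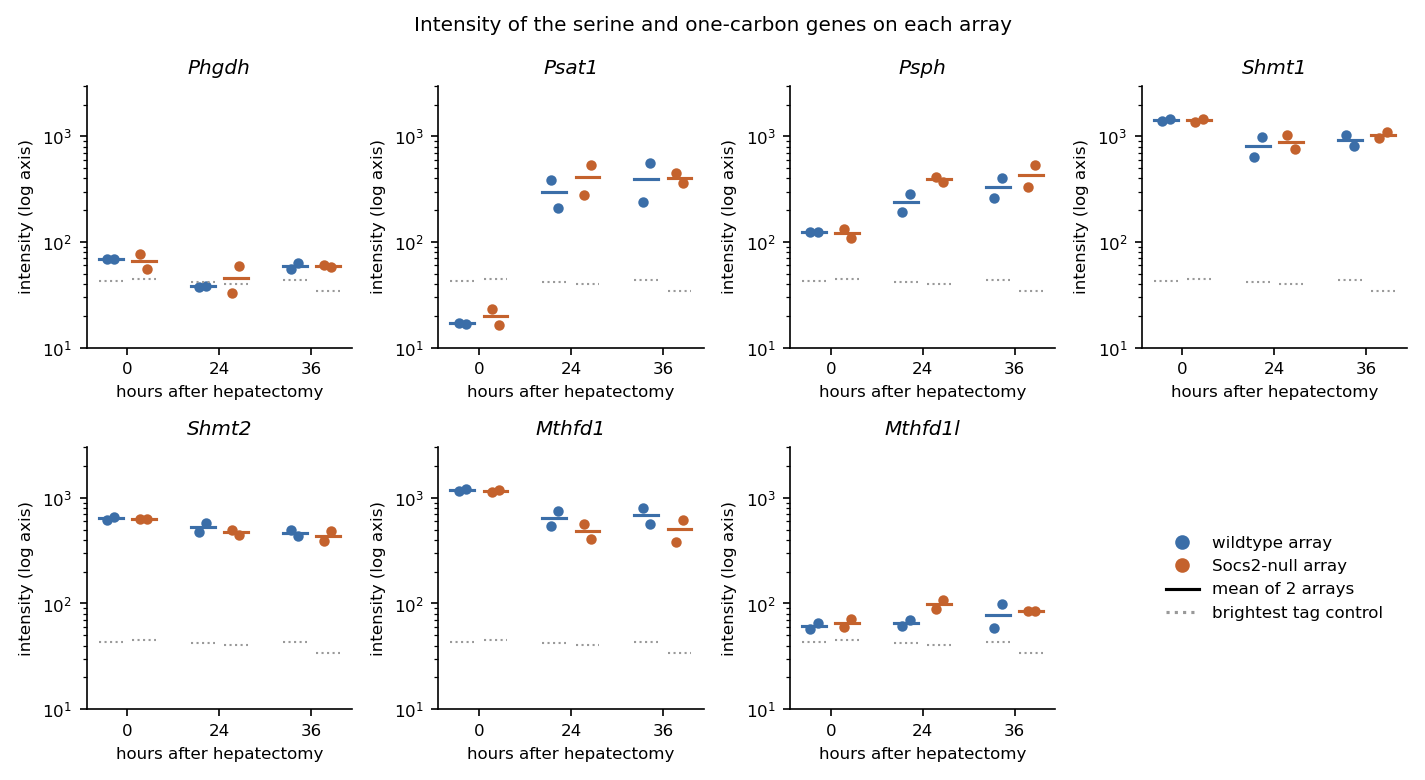
Intensity on a log axis of each of the 7 measured genes against hours after hepatectomy, with 1 point per array, blue for wildtype and orange for Socs2-null, a bar at the mean of the 2 arrays, and a dotted line at the brighter tag control of the group. Psat1 stands under the dotted line at 0 h and between 211 and 558 after the operation, Psph climbs less, and Shmt1, Shmt2 and Mthfd1 are highest at 0 h.

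Psph, the phosphatase that ends the chain, rose in all 4 comparisons with 0 h from a level already above background. It stood at 124 and 125 in wildtype 0 h and 132 and 110 in Socs2-null 0 h, and at 192 and 286 in wildtype 24 h and 413 and 370 in Socs2-null 24 h. At 36 h it was 262 and 407 in wildtype and 332 and 537 in Socs2-null liver. No operated array overlapped an unoperated one. The change at 24 h was 0.83 ± 0.25 in wildtype (1.78-fold, adjusted p = 0.0337) and 1.57 ± 0.25 in Socs2-null liver (2.98-fold, adjusted p = 0.00171). At 36 h it was 1.28 ± 0.25 (2.44-fold, adjusted p = 0.00791) and 1.68 ± 0.25 (3.21-fold, adjusted p = 0.00137). The wildtype call at 24 h was lost without wildtype 0 h replicate 1 (adjusted p = 0.132), wildtype 0 h replicate 2 (0.135) or wildtype 24 h replicate 2 (0.212). At 36 h it was lost without either wildtype 0 h array (0.0589 and 0.0644) or wildtype 36 h replicate 2 (0.0667).

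Phgdh, the first enzyme of the chain, passed the test once among the comparisons with 0 h, and there it was lower. Its intensity was 68.9 and 68.3 in wildtype 0 h and 77.5 and 55.8 in Socs2-null 0 h. It was 37.8 and 38.6, under background, in wildtype 24 h, and 32.8 and 58.8 in Socs2-null 24 h, where the lower array was under background. By 36 h it was 55.5 and 63.6 in wildtype and 60.6 and 58.5 in Socs2-null liver. Phgdh is thus dim on every array, and the 2 wildtype arrays at 24 h are below both wildtype arrays at each other time. It fell at 24 h in wildtype liver by 0.64 ± 0.18 (adjusted p = 0.0233, at least 1.67-fold lower). In Socs2-null liver the change at 24 h was -0.44 ± 0.18 (adjusted p = 0.0945), and at 36 h the changes were -0.17 (adjusted p = 0.571) and -0.12 (adjusted p = 0.694). Without Socs2-null 24 h replicate 2 the Socs2-null change at 24 h was -0.75 and passed (adjusted p = 0.00964), and without replicate 1 it was -0.13 (adjusted p = 0.585). The wildtype call was lost without any of the 4 arrays compared (adjusted p = 0.0864 to 0.106). It was also lost with the mean of both Phgdh probe sets (-0.28, adjusted p = 0.122), since the second probe set lay at 13.3 to 22.2, under background, and gave a difference of 0.07. Both Phgdh probe sets are of the cross-hybridizing kinds, so their signal may not come from Phgdh alone.

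Shmt1, the cytosolic enzyme that takes the carbon from serine, was highest in unoperated liver. It read 1394 and 1446 in wildtype 0 h and 1373 and 1468 in Socs2-null 0 h. After the operation it read 641 and 980 in wildtype 24 h, 1026 and 759 in Socs2-null 24 h, 1024 and 812 in wildtype 36 h and 963 and 1107 in Socs2-null 36 h. Every operated array was below every unoperated one. Shmt1 fell at 24 h by 0.83 ± 0.20 in wildtype (1.78-fold, adjusted p = 0.0138) and by 0.68 ± 0.20 in Socs2-null liver (1.60-fold, adjusted p = 0.0326). The changes at 36 h missed the threshold, at -0.63 ± 0.20 (adjusted p = 0.059) and -0.45 ± 0.20 (adjusted p = 0.144), the first of which passed in 8 of 25 alternative settings. Its other 3 probe sets gave changes between -0.61 and -1.33 in the 4 comparisons with 0 h, and with the mean of the 4 probe sets both 36 h changes passed, at -0.95 (adjusted p = 0.0125) and -0.69 (adjusted p = 0.0369). The wildtype call at 24 h was lost without either wildtype 0 h array (adjusted p = 0.0712 and 0.0875) or wildtype 24 h replicate 1 (0.115). The Socs2-null call at 24 h was lost without any 1 of 5 arrays, both wildtype 0 h (0.0532 and 0.0533), both Socs2-null 0 h (0.101 and 0.149) and Socs2-null 24 h replicate 2 (0.189), and with centring on array medians (0.0687).

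Shmt2, its mitochondrial counterpart, passed the test in 1 of the 4 comparisons with 0 h. It was 621 and 660 in wildtype 0 h and 633 and 637 in Socs2-null 0 h, then 478 and 575 in wildtype 24 h, 501 and 441 in Socs2-null 24 h, 500 and 434 in wildtype 36 h and 386 and 482 in Socs2-null 36 h. The operated arrays were again all below the unoperated ones. Shmt2 fell at 36 h in Socs2-null liver by 0.54 ± 0.15 (1.46-fold, adjusted p = 0.0248). The other changes were -0.28 ± 0.15 (adjusted p = 0.179) and -0.45 ± 0.15 (adjusted p = 0.0649) in wildtype liver at 24 and 36 h, and -0.42 ± 0.15 (adjusted p = 0.058) in Socs2-null liver at 24 h. Of 25 alternative settings the wildtype change at 36 h passed in 4 and the Socs2-null change at 24 h in 6. The call was lost without Socs2-null 0 h replicate 1 (0.109), Socs2-null 0 h replicate 2 (0.12) or Socs2-null 36 h replicate 1 (0.156), and when only the arrays compared were fitted (0.0534). The 2 dimmer Shmt2 probe sets, at 22.4 to 78.6, gave changes from -0.84 to 0.21 in these comparisons.

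Mthfd1, the cytosolic enzyme with dehydrogenase, cyclohydrolase and synthetase activities, was lower after the operation, and the call held in every setting tried in Socs2-null liver. Its intensity was 1166 and 1212 in wildtype 0 h and 1139 and 1186 in Socs2-null 0 h. It was 541 and 759 in wildtype 24 h, 570 and 411 in Socs2-null 24 h, 804 and 569 in wildtype 36 h and 385 and 623 in Socs2-null 36 h. All operated arrays lay below all unoperated ones, with pools of the same group up to 238 apart. In Socs2-null liver Mthfd1 fell by 1.24 ± 0.25 at 24 h (2.35-fold, adjusted p = 0.00515) and by 1.22 ± 0.25 at 36 h (2.33-fold, adjusted p = 0.00627). In wildtype liver it fell by 0.87 ± 0.25 at 24 h (1.83-fold, adjusted p = 0.0261), and its change at 36 h was -0.80 ± 0.25 (adjusted p = 0.0526), which passed in 10 of 25 alternative settings. Its second probe set gave -0.86 and -0.71 in wildtype and -1.17 and -1.05 in Socs2-null liver. The wildtype call at 24 h was lost without either wildtype 0 h array (0.104 and 0.126), without wildtype 24 h replicate 1 (0.174) and with centring on array medians (0.0613).

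Mthfd1l, the mitochondrial formyltetrahydrofolate synthetase that releases formate, was dim and passed the test in no comparison of the main fit. It was 57.7 and 65.4 in wildtype 0 h, 60.4 and 71.1 in Socs2-null 0 h, 60.8 and 69.8 in wildtype 24 h and 89.6 and 107 in Socs2-null 24 h. At 36 h it was 58 and 98.6 in wildtype and 85.6 and 84.5 in Socs2-null liver. In Socs2-null liver all 4 operated arrays were above both 0 h arrays, while in wildtype liver the groups overlapped. The changes over 24 and 36 h were 0.48 ± 0.18 (adjusted p = 0.0703) and 0.31 ± 0.18 (adjusted p = 0.259) in Socs2-null liver, and 0.07 ± 0.18 (adjusted p = 0.812) and 0.25 ± 0.18 (adjusted p = 0.378) in wildtype liver. The Socs2-null change at 24 h passed with centring on array medians (0.56, adjusted p = 0.0458), with the replicate number as a block (0.48, adjusted p = 0.0368) and without either wildtype 36 h array (adjusted p = 0.0177 and 0.0172). Without wildtype 36 h replicate 1 the wildtype change at 36 h was 0.57 and passed (adjusted p = 0.0361).

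Counted over the 7 genes, 5 were called at 24 h in wildtype liver, Psat1 and Psph higher and Phgdh, Shmt1 and Mthfd1 lower. In that comparison 25.8% of all genes were called, 10.2% higher and 15.6% lower. At 36 h in wildtype liver 2 of the 7 were called, Psat1 and Psph, both higher, against 15.2% of all genes (5.69% higher and 9.5% lower). In Socs2-null liver 4 of the 7 were called at 24 h, against 24.2% of all genes (10.8% higher and 13.5% lower), with Psat1 and Psph higher and Shmt1 and Mthfd1 lower. At 36 h 4 were called, against 20% of all genes (9.84% higher and 10.1% lower), with Shmt2 in place of Shmt1 among the lower ones. The median change of the 7 was -0.28, -0.17, -0.42 and -0.12 in these 4 comparisons, beside -0.08, -0.06, -0.04 and -0.03 over all genes. The 24 h and 36 h comparisons of a genotype share their 0 h arrays, so their counts are not independent. Between 24 and 36 h, 0 of the 7 genes changed in wildtype liver, where 0.24% of all genes were called, and 0 in Socs2-null liver, where 0.00585% were. At an unadjusted p under 0.05 those counts were 1 of 7, Phgdh with 0.48 ± 0.18 (adjusted p = 0.253), and 0 of 7, beside 2546 and 1228 of the 17097 genes.

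**Figure D2:**
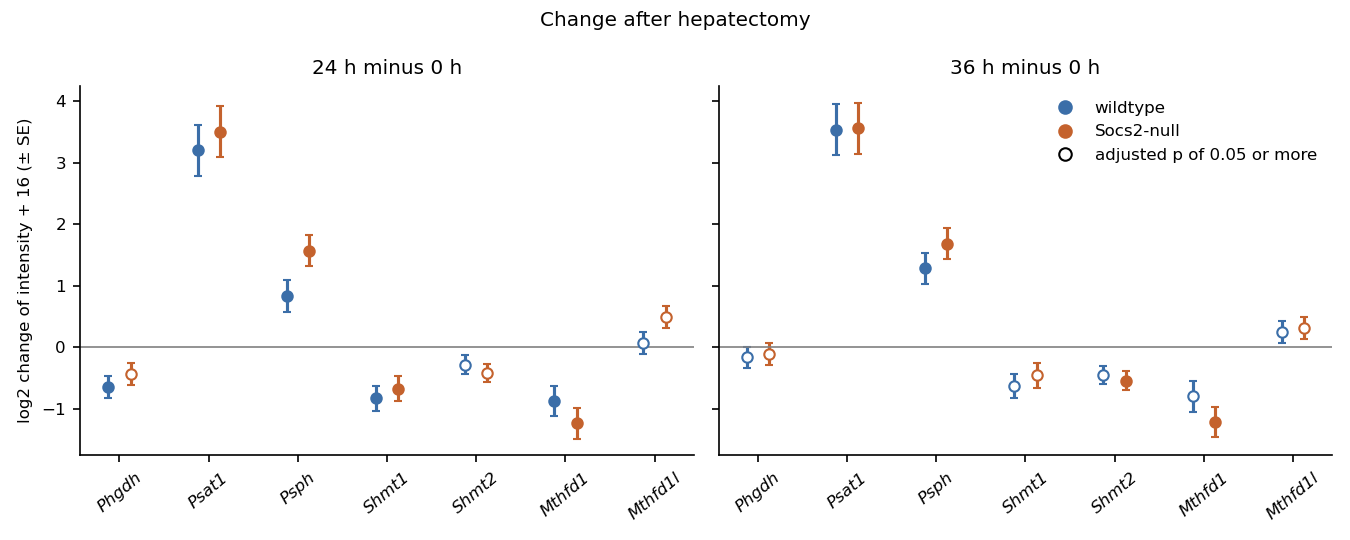
Log2 change of intensity + 16 from 0 h to 24 h (left) and to 36 h (right) for the 7 genes, in wildtype (blue) and Socs2-null liver (orange), with bars for the standard error of the fit and open circles for an adjusted p of 0.05 or more. Psat1 (3.20 to 3.56) and Psph (0.83 to 1.68) lie above 0 in all 4 comparisons, and Shmt1, Shmt2 and Mthfd1 lie between -0.28 and -1.24.

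Ordered by mean intensity, the groups of a gene fell into no more than 2 separate blocks. For Psat1 and Psph the 2 unoperated groups were lowest, and no array of theirs overlapped the next group. For Shmt1, Shmt2 and Mthfd1 the 2 unoperated groups were highest, again with a gap. Inside these blocks neighbouring groups overlapped in every case, although groups further apart in the order need not, as with Psph in wildtype 24 h and Socs2-null 24 h. For Psat1 the operated groups ran from wildtype 24 h (300.2 ± 126, mean ± SD) to Socs2-null 24 h (410 ± 184). For Psph they ran from wildtype 24 h (239 ± 66.2) to Socs2-null 36 h (435 ± 145), and for Mthfd1 from Socs2-null 24 h (491 ± 113) to wildtype 36 h (687 ± 167). All neighbours overlapped for Phgdh, whose lowest group was wildtype 24 h (38.2 ± 0.57) and highest wildtype 0 h (68.6 ± 0.42). For Mthfd1l the sole gap was under the highest group, Socs2-null 24 h (98.5 ± 12.6), with Socs2-null 36 h (85 ± 0.71) next.

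The comparison of genotypes asks whether loss of Socs2 alters these genes at rest or in regrowth. No member passed the test between Socs2-null and wildtype liver at 0, 24 or 36 h or on average over the times, 0 of 7 in each comparison. Over all genes 0% were called at 0 h, 0.0117% at 24 h, 0.0234% at 36 h (0.00585% higher and 0.0175% lower) and 0.0292% on average. At an unadjusted p under 0.05, limma gave 0, 2, 0 and 2 of the 7, in both cases Psph and Mthfd1l, beside 847, 1408, 1101 and 1750 of the 17097 genes. At 0 h the differences of the 6 genes above background ran from -0.05 to 0.07 on the log2 scale, that of Psat1, under background in both genotypes, was 0.11, and the arrays of the genotypes overlapped for each gene.

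Psph and Mthfd1l at 24 h were the 2 cases among these in which the arrays of the genotypes did not overlap. Psph was 413 and 370 in Socs2-null against 192 and 286 in wildtype liver, a difference of 0.70 (95% interval 0.14 to 1.25, adjusted p = 0.512). Mthfd1l was 89.6 and 107 against 60.8 and 69.8, a difference of 0.49 (0.10 to 0.88, adjusted p = 0.512). Averaged over the times the differences were 0.34 for Psph (adjusted p = 0.47) and 0.23 for Mthfd1l (adjusted p = 0.481). Mthfd1 was lower in Socs2-null liver by 0.39 at 24 h (interval -0.94 to 0.15) and 0.45 at 36 h (-0.999 to 0.09, adjusted p = 0.814) in the means, with overlapping arrays. For Psat1 the interval ran from -0.51 to 1.35 at 24 h and from -0.80 to 1.07 at 36 h, which includes a level over 2-fold higher in Socs2-null liver at either time. Shmt2 was the most tightly bounded, with -0.15 (-0.47 to 0.17) at 24 h and -0.11 (-0.43 to 0.22) at 36 h. The size of the response from 0 h differed between genotypes for 0 of 7 genes at 24 h, where 0% of all genes were called, and 0 of 7 at 36 h, where 0.00585% were, with 0 of 7 at an unadjusted p under 0.05 in either. The largest such difference was that of Psph at 24 h, 0.74 ± 0.36 (interval -0.05 to 1.53, adjusted p = 1).

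**Figure D3:**
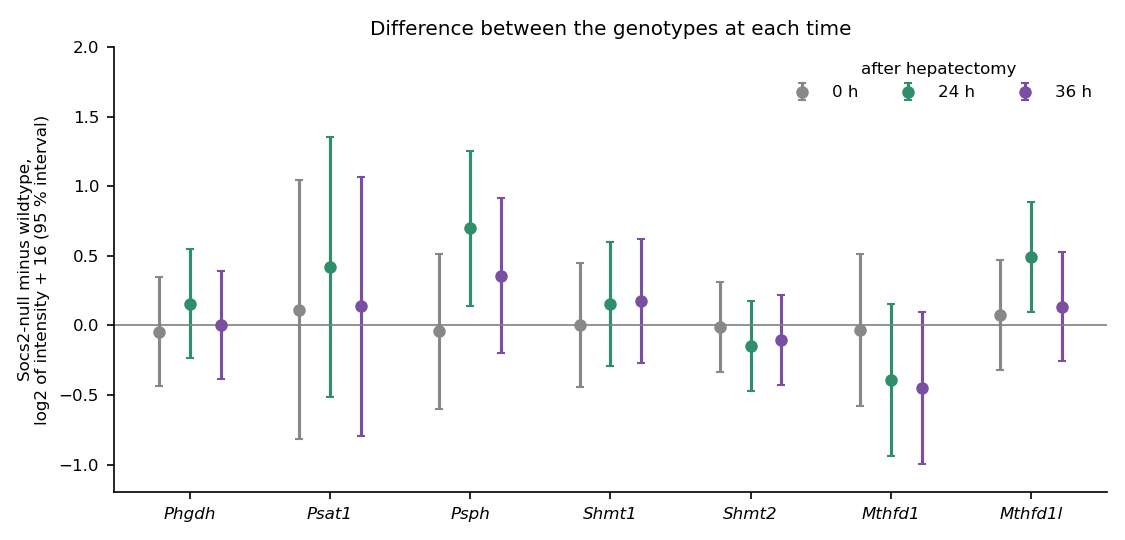
Socs2-null minus wildtype difference in log2 of intensity + 16 for each of the 7 genes at 0 h (grey), 24 h (green) and 36 h (purple), with 95% intervals from the fit. The intervals of Psph and Mthfd1l at 24 h stop above 0, at 0.14 and 0.10, without passing the adjusted threshold, and the other 19 include 0.

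Differences between the pools of a group ran in parallel for 3 of the members. The difference between replicate 1 and replicate 2 had the same sign for Shmt1, Shmt2 and Mthfd1 in each of the 6 groups, by the probe set used for each. In the 0 h groups these differences were small, from -0.10 to -0.009. In the 4 operated groups the Mthfd1 difference was -0.48 in wildtype 24 h, 0.46 in Socs2-null 24 h, 0.49 in wildtype 36 h and -0.67 in Socs2-null 36 h, with Shmt1 at -0.60, 0.43, 0.33 and -0.20. All 4 Shmt1 probe sets and both Mthfd1 probe sets had that sign in the operated groups. The 2 dimmer Shmt2 probe sets, near or under background, did not. In Socs2-null 24 h they went the other way, at 28.2 against 39.9 and at 29.4 against 49.0. The second did so in Socs2-null 36 h too, at 30.3 against 22.4. Psat1 went the other way in each of those 4, at 0.84, -0.91, -1.17 and 0.29. The pool with more Psat1 was thus the pool with less Shmt1 and Mthfd1. Psph did not follow Psat1, at -0.54, 0.15, -0.61 and -0.67. Among all other genes 2.06% matched the sign of Mthfd1 in all 6 groups, 11.2% matched it in the 4 operated groups and 10% were opposite in those 4. The pattern was noticed in these values, so it carries no test, and replicate numbers have no order.

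**Figure D4:**
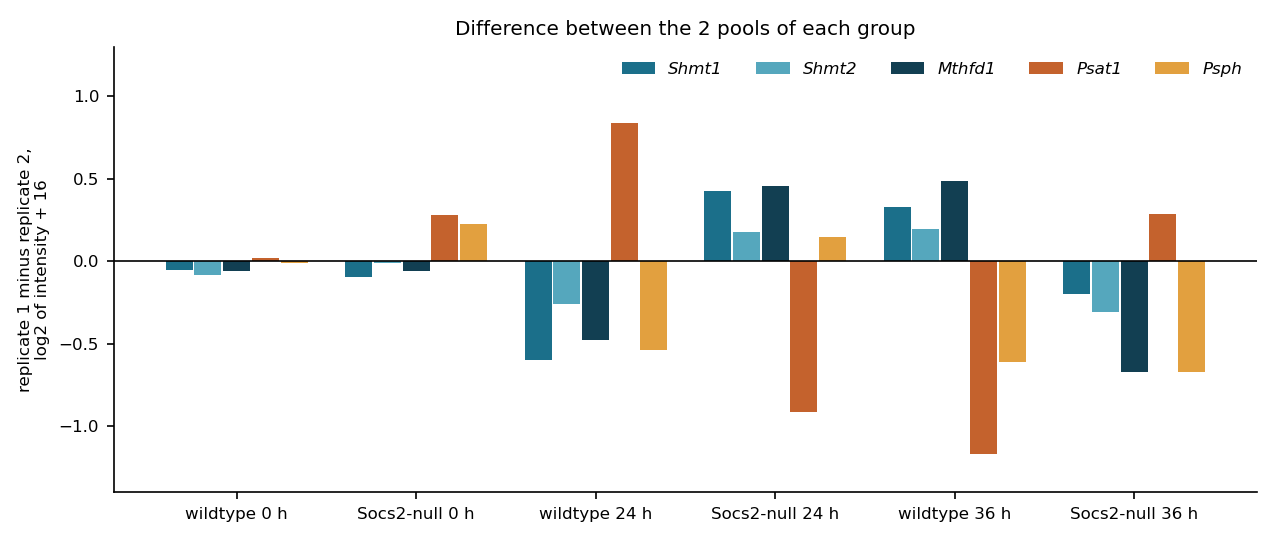
Difference between the 2 pools of each group, replicate 1 minus replicate 2, in log2 of intensity + 16, for Shmt1, Shmt2, Mthfd1, Psat1 and Psph. The bars of Shmt1, Shmt2 and Mthfd1 point the same way in each group, and in the 4 operated groups the Psat1 bar (0.84, -0.91, -1.17 and 0.29) points the other way.

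For the 3 members with the widest range of group means, Psat1 (3.68 log2 units), Psph (1.68) and Mthfd1 (1.26), the genes with the most similar profile over the 12 arrays were listed among 6722 brighter genes. Likeness was the root mean square difference of the log2 values after each gene was centred on its own mean. Medians of this difference are over the 6722 genes compared. Nearest to Psat1 were Cyp2b10, a cytochrome P450 induced by xenobiotics, at 0.32, the thrombomodulin gene Thbd at 0.37 and the tubulin gene Tubb2a at 0.41, against a median of 1.65. At 24 h Cyp2b10 was higher by 3.46 in wildtype and by 3.54 in Socs2-null liver on the log2 scale. Nearest to Psph were Mad2l2 (0.25), Net1 (0.25) and Nap1l1 (0.26), against a median of 0.71. Nearest to Mthfd1 were the cytochrome P450 gene Cyp4f15 (0.14), the complement regulator gene Cd59a (0.14) and Oaf (0.15), against a median of 0.61. The log2 difference of Cyp4f15 from 0 h was -1.44 at 24 h and -1.38 at 36 h in Socs2-null liver. These lists describe 12 arrays and carry no test.

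The counts of the neighbouring lists that follow stand against shares of all genes of 10.2% higher and 15.6% lower at 24 h and 5.69% and 9.5% at 36 h in wildtype liver, and 10.8% and 13.5%, then 9.84% and 10.1%, in Socs2-null liver. Of 13 measured genes of folate interconversion, transport and storage, 0 rose and 2 fell over 24 h in wildtype liver. Over 36 h 1 rose and 2 fell there, and in Socs2-null liver 1 rose and 3 fell at each time. Aldh1l1, which oxidizes formyltetrahydrofolate, fell from 4792 ± 276 to 2802 ± 569 in wildtype 24 h, by 0.78 ± 0.17 (adjusted p = 0.00836). Ftcd, which feeds carbon from histidine into the folate pool, fell by 0.58 ± 0.15 in wildtype (adjusted p = 0.0197) and 0.80 ± 0.15 in Socs2-null liver (adjusted p = 0.0041) at 24 h. Slc19a1, the reduced folate carrier, rose at 24 h in Socs2-null liver by 0.69 ± 0.20 (adjusted p = 0.0306), and Folr2, a folate receptor of macrophages, fell there by 0.57 ± 0.13 (adjusted p = 0.00974). Slc25a32, the mitochondrial folate carrier, rose at 36 h in wildtype liver by 0.45 ± 0.11 (adjusted p = 0.0231). Tyms, thymidylate synthase, stood at 0.46 ± 0.17 above its 0 h level at 24 h in wildtype liver (adjusted p = 0.0667). Between genotypes, limma gave 0 of the 13 an unadjusted p under 0.05 at 24 or 36 h, beside 1408 and 1101 of all 17097 genes. For the genotype difference in the response from 0 h it also gave 0 of 13 at each time, beside 646 and 640.

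Among 7 measured genes of glycine cleavage and choline-derived carbon supply, 4 fell at 24 h and 3 at 36 h in wildtype liver and 5 and 4 in Socs2-null liver, with median changes of -0.81, -0.31, -0.66 and -1.05. Sardh, sarcosine dehydrogenase, fell from 2569 ± 6.19 to 1154 ± 106 at 24 h in wildtype (-1.15 ± 0.14, adjusted p = 0.00061) and by 1.46 ± 0.14 in Socs2-null liver (adjusted p = 0.000109). Pipox, the peroxisomal sarcosine oxidase, fell by 1.26 ± 0.20 (adjusted p = 0.00196) and 1.45 ± 0.20 (adjusted p = 0.000755). Aldh7a1, which oxidizes betaine aldehyde, fell at 24 h by 0.81 ± 0.16 in wildtype and 0.98 ± 0.16 in Socs2-null liver. Chdh, choline dehydrogenase, fell by 0.88 ± 0.17 at 24 h in wildtype liver and by 1.23 ± 0.17 at 36 h in Socs2-null liver, and read -0.29 ± 0.17 (adjusted p = 0.269) at 36 h in wildtype liver. The exception was Gldc, the decarboxylase of the glycine cleavage system, which rose at 36 h in wildtype liver (0.84 ± 0.19, adjusted p = 0.0137) and at 24 h (0.56 ± 0.19, adjusted p = 0.0488) and 36 h (0.67 ± 0.19, adjusted p = 0.0277) in Socs2-null liver.

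Of 13 measured genes of the methionine cycle and transsulfuration, 2 rose and 2 fell at 24 h in wildtype liver, and 3 rose and 4 fell in Socs2-null liver. At 36 h 1 rose and 2 fell in wildtype liver, and 2 rose and 3 fell in Socs2-null liver. In wildtype liver at 24 h those 4 of 13 compare with 25.8% of all genes. Mat1a, which makes S-adenosylmethionine in adult liver, rose from 5366 ± 37.1 to 8983 ± 340 in wildtype 24 h (0.74 ± 0.12, adjusted p = 0.00251). Gnmt, which spends S-adenosylmethionine on glycine, fell by 0.42 ± 0.10 (adjusted p = 0.0105), and Gamt, which spends it on creatine, fell by 1.11 ± 0.26 (adjusted p = 0.0118). Mtr, methionine synthase, is dim and rose by 0.32 ± 0.09 (adjusted p = 0.0289, at least 1.13-fold). Of 6 genes of serine breakdown and the glyoxylate route none rose in the 4 comparisons and 2, 1, 3 and 3 fell, in the order wildtype 24 and 36 h and Socs2-null 24 and 36 h, where 15.6%, 9.5%, 13.5% and 10.1% of all genes fell. Agxt, an aminotransferase of serine and glyoxylate, fell from 2420 ± 118 to 1017 ± 83.3 in wildtype 24 h (-1.24 ± 0.13, adjusted p = 0.00025) and its change was -1.93 ± 0.13 (adjusted p = 1.07e-05) in Socs2-null liver. Srr, serine racemase, fell in Socs2-null liver at 24 h by 0.61 ± 0.16 (adjusted p = 0.0205), and Agxt2 fell by 0.54 ± 0.15 in wildtype liver at 24 h (adjusted p = 0.0258). Hao1, glycolate oxidase, passed in none (-0.51 ± 0.27 in wildtype 24 h, adjusted p = 0.183). Between genotypes limma called 0 of these 6 at 24 or 36 h, with 1 and 2 at an unadjusted p under 0.05, beside 1408 and 1101 of all 17097 genes. For the genotype difference in the response from 0 h it called 0 of 6 at each time, with 1 and 0 at an unadjusted p under 0.05, beside 646 and 640.

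Of 11 genes of serine use in lipids and of its transport, 4, 2, 3 and 3 rose in that order and 1 fell, Sptlc3 in Socs2-null 36 h. Slc1a5, a carrier of neutral amino acids including serine, was under background at 0 h in both genotypes and rose at 24 h by 0.76 ± 0.13 in wildtype (adjusted p = 0.00231, at least 1.34-fold) and 0.78 ± 0.13 in Socs2-null liver (adjusted p = 0.00171, at least 1.43-fold). Serinc3 rose by 0.62 ± 0.14 (adjusted p = 0.00947) and 0.48 ± 0.14 (adjusted p = 0.0268), and Sptlc1, a subunit of serine palmitoyltransferase, rose in Socs2-null liver by 0.34 ± 0.11 (adjusted p = 0.0367). Slc25a28, which rose by 0.94 ± 0.24 at 24 h in wildtype liver (adjusted p = 0.0166), is known as a mitochondrial iron carrier and not for serine, and it counts among the 11 listed genes and among the 4 that rose there.

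Of 11 measured genes of purine synthesis 4 rose in each comparison, and 1, Prps2, fell at 24 h in wildtype liver. Adsl rose from 208 ± 8.47 to 383 ± 32.4 in wildtype 24 h (0.83 ± 0.19, adjusted p = 0.00965), and Pfas rose by 0.52 ± 0.11 (adjusted p = 0.00826). Impdh1, at the branch to guanine nucleotides, was under background at 0 h and rose at least 1.40-fold in wildtype (adjusted p = 0.0126) and at least 1.78-fold in Socs2-null 24 h (adjusted p = 0.00148). Ppat, which opens the pathway, rose at 36 h in wildtype liver (0.52 ± 0.12, adjusted p = 0.0161) and read -0.24 ± 0.12 at 24 h (adjusted p = 0.17). Of 10 genes of thymidylate and deoxynucleotide synthesis 4, 1, 5 and 4 rose and Tk1 fell in all 4 comparisons. Cad, which starts pyrimidine synthesis, rose at 24 h from 64 ± 0.63 to 217 ± 31 in wildtype (1.54 ± 0.22, adjusted p = 0.00128), Umps rose by 0.56 ± 0.13 (adjusted p = 0.0125) and Dtymk by 0.88 ± 0.17 (adjusted p = 0.00507). Tk1, the thymidine salvage kinase, went from 373 ± 41 to 144 ± 41.4 there (-1.30 ± 0.27, adjusted p = 0.008). The folate and the thymidylate lists share members, Tyms among them.

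On the supply side, 3 of 6 measured genes of lower glycolysis rose in every comparison with 0 h, and they were Gapdh, Pgk1 and Pkm each time. At 24 h in wildtype liver the changes were 0.40 ± 0.07 for Gapdh, 0.37 ± 0.09 for Pgk1, which makes 3-phosphoglycerate, and 0.74 ± 0.12 for Pkm, with adjusted p of 0.00385, 0.0156 and 0.00192. Pck1, of gluconeogenesis, was called lower at 24 h in Socs2-null liver (adjusted p = 0.0259), but it was under background on all 12 arrays, so its change has no fold. Of 20 ATF4 and amino acid response genes 13, 5, 12 and 9 rose and none fell, with median changes of 0.84, 0.33, 0.78 and 0.66. Ddit4, an inhibitor of mTORC1, rose by 1.60 ± 0.22 (adjusted p = 0.000957) and 2.56 ± 0.22 (adjusted p = 4.8e-05) at 24 h in wildtype and Socs2-null liver, and Atf5 by 0.93 ± 0.19 and 1.53 ± 0.19. The tRNA synthetase genes Gars and Wars rose at 24 h by 0.83 ± 0.17 and 1.26 ± 0.23 in wildtype and 0.98 ± 0.17 and 1.03 ± 0.23 in Socs2-null liver. Atf4 rose at 24 h in wildtype liver (1.14 ± 0.23, adjusted p = 0.00678) and read 0.59 ± 0.23 in Socs2-null liver (adjusted p = 0.0923). Asns, asparagine synthetase, rose only in Socs2-null liver at 24 h (0.76 ± 0.19, adjusted p = 0.0148) among the 4 comparisons, with 0.53 ± 0.19 (adjusted p = 0.0614) in wildtype liver, and the difference between those responses did not pass (0.23 ± 0.27, adjusted p = 1).

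Of 19 measured cell cycle genes 6, 4, 7 and 6 rose in the same order and none fell. The replication genes Mcm6 (2.39 ± 0.35, adjusted p = 0.0019), Mcm4 (1.28 ± 0.32, adjusted p = 0.0167) and Pcna (1.06 ± 0.17, adjusted p = 0.00196) rose at 24 h in wildtype liver, and Mcm3 rose from under background by at least 1.24-fold. Mki67, a marker of cycling cells, read 0.08 ± 0.19 there (adjusted p = 0.781) and 0.28 ± 0.19 in Socs2-null liver (adjusted p = 0.321). Between genotypes limma called 0 of the 20 ATF4 genes at 24 h and 0 at 36 h, with 5 and 7 at an unadjusted p under 0.05, beside 1408 and 1101 of all 17097 genes, and the median difference, Socs2-null minus wildtype, was 0.05 and 0.38. Of the 19 cell cycle genes it called 0 at each time, with 1 and 2 at an unadjusted p under 0.05.

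**Figure D5:**
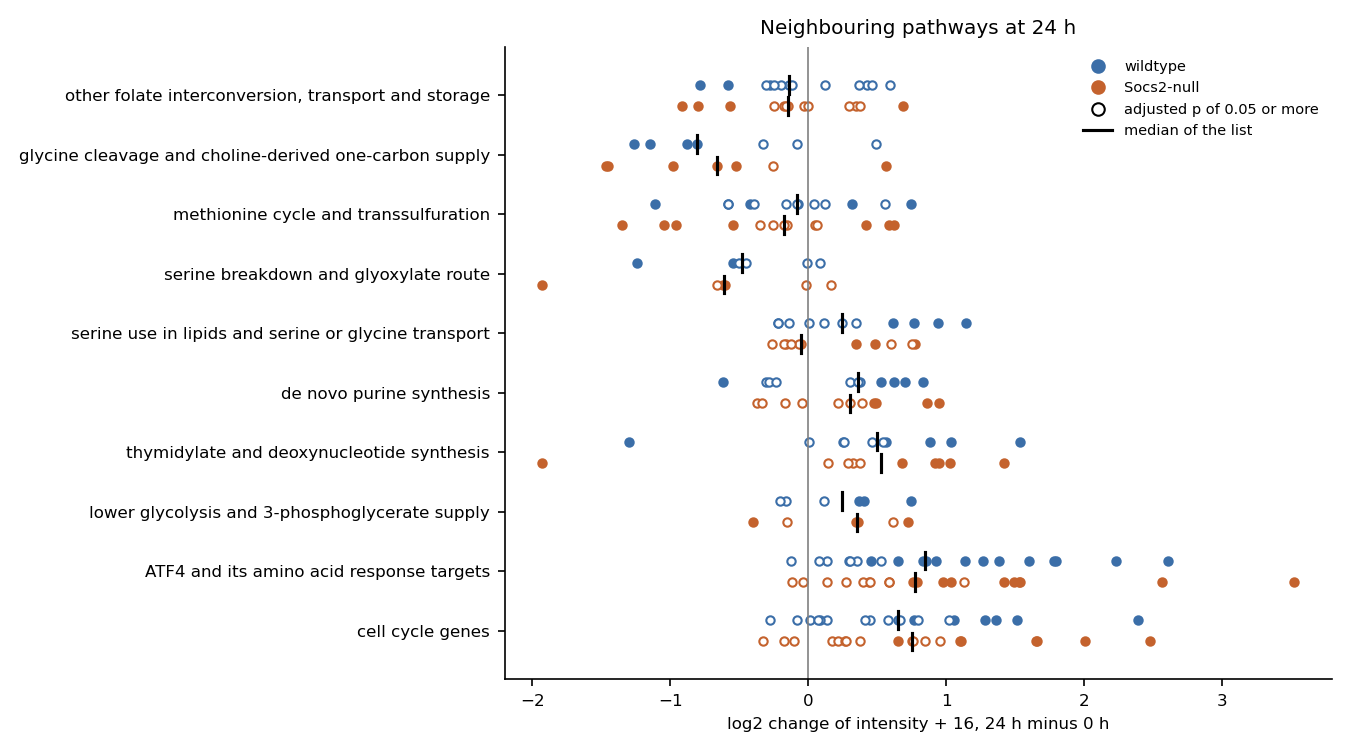
Log2 change of intensity + 16 from 0 to 24 h of every measured gene in the 10 neighbouring pathway lists, 1 point per gene, in wildtype (blue) and Socs2-null liver (orange), open where the adjusted p was 0.05 or more, with a black tick at the list median. ATF4 target genes lie mostly right of 0 (medians 0.84 and 0.78), and glycine cleavage and choline genes mostly left (medians -0.81 and -0.66).

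Markers of liver cell types moved with time as well, beside all the changes given above. The summed intensity of 10 hepatocyte markers, 9 of them above background on some array, was 95160 to 96720 at 0 h and 80940 to 87330 after the operation, with Pck1 under background throughout. Their median log2 change from 0 h was -0.18 and -0.17 in wildtype and -0.24 and -0.21 in Socs2-null liver at 24 and 36 h. All 9 endothelial markers were detected and summed to 3784 to 4184 at 0 h, 3336 to 3616 at 24 h and 2578 to 3119 at 36 h. The 3 erythroid markers summed to 8179 to 8424 at 0 h and 2673 to 4340 afterwards. The 12 macrophage markers summed to 6515 to 7811 and 6531 to 9665, the 9 stellate cell markers to 3817 to 4301 and 3504 to 4429, the 5 cholangiocyte markers to 296 to 363 and 293.8 to 365, and the 10 lymphocyte markers to 490 to 517 and 396 to 488. Of the last 3 lists 8, 4 and 9 markers were above background on some array. A sum follows its brightest markers and can hide the movement of others. Over the 12 arrays the stellate marker Dcn ran from 1880 to 3080 and Lrat from 99.8 to 329, and the macrophage marker Marco from 89.8 to 1650. The 7 monocyte and neutrophil markers summed to 384 to 453 at 0 h and 464 to 645 on 7 of the 8 operated arrays. On the remaining array, Socs2-null 24 h replicate 2, they summed to 1902, and Psat1 there was 540 against 280 in the other pool. The excess lay in S100a8 and S100a9, at 655 and 953 there, while none of the other markers passed 121 on any array. The highest Psat1, 558 in wildtype 36 h replicate 2, stood beside a marker sum of 585.2. Levels of 18 hybridization controls, RNAs added before hybridization, averaged 9.86 to 9.97 in log2 at 0 h, 9.34 to 9.90 at 24 h and 9.01 to 9.22 at 36 h. The log2 ratio of the 3' to the 5' control probe sets is a measure of RNA quality. For actin it was 0.508 to 0.548 on the 4 unoperated arrays and 0.294 to 0.461 on the 8 operated ones, with no overlap. For Gapdh it overlapped, at -0.1 to 0.0706 on the unoperated and -0.0796 to 0.0432 on the operated arrays. Without Socs2-null 24 h replicate 2 the Psat1 change at 24 h in Socs2-null liver was 3.05, and the other comparisons with 0 h do not contain that array. The part of cell mixture and of the array measures above in the changes of the 7 genes was not tested.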

How the data were processed

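Liver RNA pools of 6 groups, 2 arrays each, were hybridized after biotin labelling by the Affymetrix protocol, per the labels' protocols. The deposited values are the authors' intensities on a linear scale, from 1 to 24717. How the authors corrected background and normalized the arrays is not given in the sources used here, and no further scaling was applied. The platform annotation, which can be old, gives 28898 probe sets a single gene, 551 more than 1 gene and 15588 no gene. Each gene was taken from its brightest probe set, and log2(intensity + 16) of 17097 genes was fitted on all 12 arrays with 1 mean per group. R 4.3.3 ran limma 3.58.1, whose eBayes step used its trend and robust options through statmod 1.5.0. The 12 comparisons were two-sided, and no filter on low values was set. The code was tested on simulated data. Where all arrays of a group lie under the brightest tag control, a fold is a bound against that control. Figures were drawn with matplotlib 3.10.9.

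The members and gene lists were chosen with earlier results of these data known. Named genes are all members, from each list up to 4 genes with the smallest p over the time comparisons, the 3 genes most like each of 3 members with a mean log2 value of at least 7, and Socs2. Other genes named (Gldc, Slc25a32, Tyms, Atf4, Asns, Mki67, Prps2, Sptlc3) were chosen after their values were seen. The same holds for the markers given singly (Dcn, Lrat, Marco, S100a8, S100a9). Replicate numbers name different animals and the labels give no pairing, so the main fit used none. Over 15 pairs of groups the correlation of their replicate differences ran from -0.50 to 0.35, with a median of -0.02. It was over 0.1 in 3 pairs and under -0.1 in 3, so some groups share differences between pools. The p-values measure the spread between pools. Alternatives changed the scaling, pseudocount, filter, probe set rule, variance model and arrays used.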

Additional observations from a re-analysis of the deposited data

How the results depend on the processing

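Over 25 settings, 12 of which leave out an array, 2076 values of the members were compared, of which 63 crossed the threshold and 0 reversed a call. Psat1 in all 4 comparisons with 0 h, and Psph and Mthfd1 in both Socs2-null comparisons, were called in every setting run. The Psat1 change at 24 h in wildtype liver was 2.13 with a pseudocount of 64 and 4.0 with 1. The 2 members called at 36 h in wildtype liver became 5 under quantile normalization, 5 with arrayWeights and 4 when only the arrays compared were fitted. Leaving out 1 array gave 1 to 5 members at 24 h and 1 to 4 at 36 h in wildtype liver, and 3 to 5 and 3 to 4 in Socs2-null liver. The wildtype 24 h count was 1 when either wildtype 0 h array was left out. It was 2 and 3 when replicate 1 or replicate 2 of wildtype 24 h was. The wildtype 36 h count was 1 when either wildtype 0 h array or replicate 2 of wildtype 36 h was left out, and 4 on leaving out replicate 1 of wildtype 36 h or any 1 of the Socs2-null arrays at 24 or 36 h. The lone array of a group was then assumed to vary like the other groups. With the replicate number as a block Mthfd1l passed at 24 h in Socs2-null liver (0.48, adjusted p = 0.0368), and no other member's call changed under the block. Centring moved the median of all genes at 24 h in wildtype liver from -0.08 to 0.04. Phgdh is absent when the dimmest 50% of genes or the cross-hybridizing probe sets are left out, which leaves 6 members. No genotype difference of a member passed in any setting. Phgdh, Mthfd1l and unoperated Psat1 lie near or under background, which limits what can be seen of them.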
